A study of Mus musculus with 8 samples.

Results

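The AOM-DSS response of distal colon was compared between WT and *Hsf1* null mice, gene by gene, as the change from day 0 to day 15 in WT minus the same change in *Hsf1* null. All 8 samples of the series entered this comparison, 2 male mice in each of 4 groups, and each sample was polyA RNA sequenced from the distal colon of a separate animal. Mice of both genotypes were untreated at day 0, and those at day 15 had received azoxymethane (AOM, a colon carcinogen) by intraperitoneal injection at 10 mg/kg and then dextran sulfate sodium (DSS, an irritant of the colon lining) at 1.5% in the drinking water for 5 days. All mice were of mixed BALB/c x 129SvEV background, and the null allele was present in every cell of the null mice. The labels give an age of 10 weeks for every mouse and end the treatment with DSS, while the sample titles give day 15.

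HSF1 is the transcription factor that switches on chaperone genes when proteins misfold, and it is also active in the stromal cells of tumours and wounds. AOM damages the DNA of colon epithelium. DSS strips that epithelium, lets bacteria reach the tissue, and starts a cycle of neutrophil-rich inflammation and repair during which the differentiated surface cells, with their transporters and detoxifying enzymes, are lost and replaced. A gene's response is given here as the log2 ratio of day 15 over day 0 with its standard error (SE), its level as CPM (counts scaled to the TMM-normalised library total), and the difference of responses as WT minus null, so that a positive difference is a larger rise or a smaller fall in WT.

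*Hsf1* itself stood at 40.5 and 36.5 CPM in WT at day 0 and at 50.4 and 45.9 CPM in WT at day 15. It stood at 13.9 and 11.8 CPM in null mice at day 0 and at 13.5 and 9.09 CPM in null mice at day 15, below every WT mouse on both days. Its response did not pass the test in WT (log2 0.32, SE 0.28) or in null mice (−0.21, SE 0.30). The libraries held between 2553348 and 12440257 counts, and the smallest were replicate 2 of each day-0 group. WT replicate 1 at day 0 stood apart from its partner in connective-tissue genes: summed fibroblast marker level was 2884 CPM against 1083 CPM, and summed adipocyte marker level 404 CPM against 123 CPM. Null replicate 1 at day 15 was lowest of the 8 mice for the summed fibroblast, macrophage and endothelial markers, at 534, 471 and 132 CPM.

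Of 14371 genes tested, 1112 passed in WT (7.74%), of which 499 rose (3.47%) and 613 fell (4.27%). Passing required an adjusted p under 0.05 and a log2 change beyond 1. In all, 1692 passed in *Hsf1* null (11.8%), of which 761 rose (5.3%) and 931 fell (6.48%). In both genotypes 458 genes (3.19%) changed in the same direction (219 rose, 239 fell), which is 41.2% of the WT list and 27.1% of the null list. A further 651 genes passed in WT and not in null (279 rose, 372 fell), 1231 passed in null and not in WT (540 rose, 691 fell), and 3 (0.0209%) passed in opposite directions. The test of the difference itself passed for 1 gene, *Slc15a2* (0.00696% of the genes tested). At an unadjusted p under 0.05 it held 1238 genes (8.61%), 515 with the WT response above the null response and 723 with it below. DESeq2 called 120 genes in place of 1. The difference shares its libraries with both responses, so these counts are not independent of one another.

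The counts of responding genes depended on single libraries. The WT count went from 1112 to 485 without WT replicate 1 at day 0, to 133 without WT replicate 2 at day 0, to 92 without WT replicate 2 at day 15, and stayed within 1.5 times without any other mouse. The null count went from 1692 to 0 without null replicate 2 at day 0, so that no list below had a null call without that mouse, to 487 without null replicate 1 at day 15 and to 361 without null replicate 2 at day 15. The number of genes shared in one direction ranged from 0 to 410 over the 8 omissions, and was 0 without null replicate 2 at day 0 and 48 without WT replicate 2 at day 15. The number of genes with an unadjusted p under 0.05 for the difference ranged from 691 to 2105, highest without null replicate 2 at day 15. The count of genes past the adjusted threshold ranged from 0 to 50, again highest without that mouse.

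**Figure D1:**
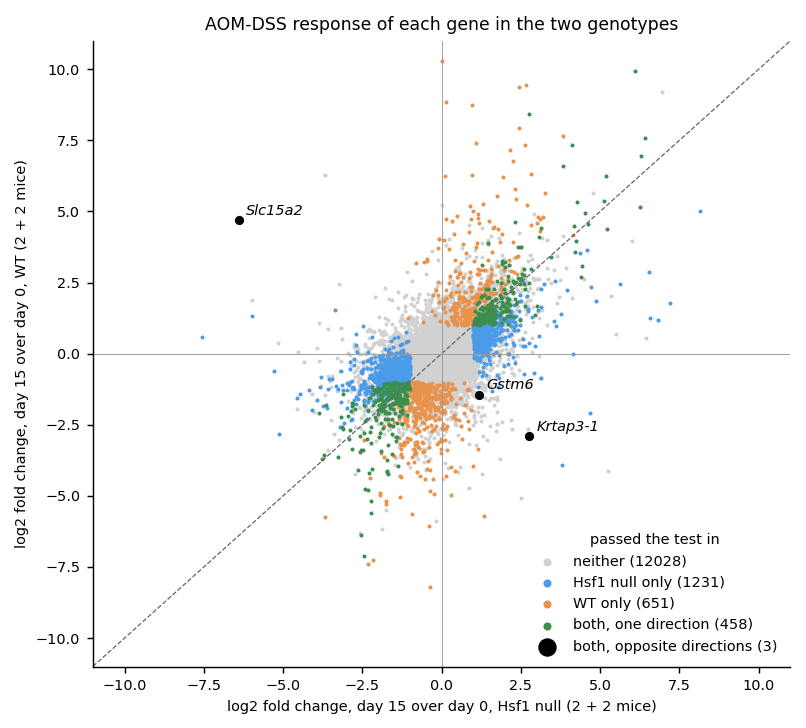
Each point is one of 14371 genes; the x axis is the log2 fold change from day 0 to day 15 in *Hsf1* null and the y axis the same in WT, 2 mice per group and day. Green genes (458) passed in both genotypes in one direction, orange (651) in WT and not in null, blue (1231) in null and not in WT, and the 3 labelled genes in opposite directions; the dashed line marks equal responses.

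Most genes that passed in a single genotype moved the same way in the other, with a smaller estimate. The fitted sign was the same in both genotypes for 74.4% of all genes tested, for 87.56% of the 651 genes called in WT and not in null and for 94.48% of the 1231 called in null and not in WT. The 279 genes that rose in WT without passing in null had a median log2 change of 2.07 in WT and 0.89 in null, and the 372 that fell in WT had −1.79 and −0.58. The 540 genes that rose in null without passing in WT had medians of 1.35 in null and 0.73 in WT, and the 691 that fell had −1.50 and −0.71. At an unadjusted p under 0.05 in the other genotype, 260 of the 651 and 580 of the 1231 moved the same way. Of the 651 genes, 310 (47.6%) had an unadjusted p under 0.05 for the difference itself, and of the 1231, 303 (24.6%). These genes were chosen by tests on the same libraries, and none of either class passed the adjusted test of the difference. Across genes, which are not independent replicates, the WT and null log2 changes had a Pearson correlation of 0.574 and a Spearman correlation of 0.621.

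Several of the 458 shared genes changed by similar amounts in both genotypes. *Slc26a3*, the chloride and bicarbonate exchanger of surface colonocytes, was at 448 and 813 CPM in untreated WT and 46.7 and 55.3 CPM in treated WT. In null mice it was at 1252 and 1828 CPM untreated and 231 and 88.3 CPM treated. It fell by 3.63 (SE 0.50) and 3.27 (SE 0.49) on the log2 scale, a difference of −0.36 (SE 0.64), and treated and untreated mice did not overlap in either genotype, which was so for 62.5% of all genes tested in WT and 61.3% in null. *Akr1c14*, a hydroxysteroid dehydrogenase, fell by 3.71 in WT and 3.76 in null, and *Dpyd*, the enzyme that starts pyrimidine breakdown, by 3.56 and 3.70. *Bche*, butyrylcholinesterase, fell by 3.36 and 2.81, and *Optc*, an extracellular matrix proteoglycan, by 2.99 and 2.92.

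*Wfdc18* rose from 12.5 and 16.7 CPM to 320 and 360 CPM in WT and from 17.9 and 11.1 CPM to 149 and 579 CPM in null, a log2 rise of 4.57 (SE 0.60) and 4.60 (SE 0.59). *Clca4b*, of the calcium-activated chloride channel regulator family, rose by 5.36 and 5.11 although its levels differed between genotypes on both days (18.2 to 19.9 CPM against 4.10 to 4.31 CPM untreated, 615 to 962 CPM against 23.2 to 266 CPM treated). The treated null mice lay far apart in this gene, and its family has close relatives whose reads may be shared. *Isx*, an intestinal homeobox transcription factor, had 4 and 0 counts in untreated WT and 133 and 104 counts in treated WT. In null mice *Isx* had 2 and 1 counts untreated and 68 and 175 treated, a ratio of 87.0 (95% counting interval 29.4 to 425). *Krt13*, a keratin of squamous epithelium, and *Prss22*, a serine protease, also passed in both, from 1 or no counts in the untreated groups. *Prss22* had 380 counts in treated WT against 1 count untreated, and in null mice 19 counts against 0, which is at least 6.80-fold higher taking 3 counts over the untreated group as the floor.

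Only *Slc15a2* passed the test of the difference. It encodes PEPT2, a transporter of small peptides, and lies on chromosome 16 from 36750177 to 36784962 in mm10 coordinates (ENSMUSG00000022899). Its counts were 7 and 0 in untreated WT and 131 and 149 in treated WT, while in null mice they were 380 and 53 untreated and 1 and 3 treated. In CPM this is 0.686 and 0 against 11.4 and 15.7 in WT, and 31.2 and 19.0 against 0.155 and 0.401 in null. Every treated WT mouse was above every untreated WT mouse and every treated null mouse below every untreated null mouse. The log2 change was 4.69 (SE 0.68, adjusted p = 0.00766) in WT and −6.4 (SE 0.71, adjusted p = 0.0123) in null, a difference of 11.09 (SE 0.98, adjusted p = 0.00761). The genotypes lay apart before treatment as well as after it, with a log2 difference of WT minus null of −5.6 at day 0 and 5.49 at day 15. The adjusted p of the difference rose to 0.223 without null replicate 1 at day 0, to 0.0854 without null replicate 2 at day 0 and to 0.0571 without null replicate 1 at day 15, and the difference itself stayed between 10.62 and 16.06 in all 8 omissions.

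The other pair of genes that passed in opposite directions fell in WT and rose in null. *Gstm6*, a glutathione S-transferase of the mu class, stood at 20.3 and 26.6 CPM in untreated and 9.39 and 7.71 CPM in treated WT, against 20.5 and 14.4 CPM in untreated and 45.6 and 34.2 CPM in treated null mice. Its difference was −2.61 (SE 0.46, adjusted p = 0.21). *Krtap3-1*, a hair keratin-associated protein gene, fell in WT from 31 and 9 counts to 6 and 3 and rose in null from 9 and 2 counts to 46 and 23, a difference of −5.66 (SE 1.01, adjusted p = 0.21). Neither difference passed with edgeR, while DESeq2 gave an adjusted p of 0.00177 for *Gstm6* and 0.00641 for *Krtap3-1*. The calls in single genotypes rested on few mice: over the 8 omissions *Gstm6* kept its WT call in 4 and its null call in 1, and *Krtap3-1* kept each call in 2. The mu-class transferases are similar enough in sequence for reads to be split between them.

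In these whole-tissue samples, more cells of a kind and more RNA per cell cannot be told apart. Of the genes with the smallest p of the difference and WT above null, several were inflammatory or matrix-linked and rose more in WT. *Saa3*, an acute-phase apolipoprotein made locally in inflamed tissue, went from 1.76 and 3.97 CPM to 489 and 1184 CPM in WT and from 5.66 and 5.39 CPM to 35.2 and 40.4 CPM in null. It rose in both genotypes, by 8.42 (SE 0.58) and 2.76 (SE 0.46), and the difference of 5.66 (SE 0.70) had an adjusted p of 0.0744. *Lcn2*, which withholds iron from bacteria, was at 2.35 and 3.57 CPM in untreated WT and 78.5 and 347 CPM in treated WT, against 3.45 and 2.87 CPM and then 4.34 and 8.29 CPM in null. It rose in WT by 6.27 (SE 0.75), was at 0.96 (SE 0.69) in null, and its difference of 5.31 had an adjusted p of 0.233.

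*Igfbp5*, a secreted binding protein for insulin-like growth factors found in fibroblasts and muscle, had similar levels in all 4 untreated mice (113 to 152 CPM). It rose to 1147 and 1331 CPM in treated WT, while treated null mice were at 58.1 and 128 CPM, and the difference was 3.76 (SE 0.53, adjusted p = 0.0989). *Tmem252* rose in WT from 1.08 and 1.59 CPM to 33.8 and 37.7 CPM and was at 0.718 to 1.86 CPM in all 4 null mice. *Gpx3*, the secreted glutathione peroxidase, rose in WT from 89.5 and 78.2 CPM to 425 and 374 CPM and was at 73.8 to 125 CPM in all null mice. In each of these 3 genes, treated WT mice were above the other 6. *Sfrp1*, a secreted Wnt inhibitor, rose in WT (91.2 and 108 CPM to 222 and 208 CPM), and in null it was at 147 and 139 CPM untreated and 97.2 and 92.6 CPM treated. *Sema6d*, a semaphorin, fell in null from 58.4 and 66.8 CPM to 26 and 30.7 CPM and was at 47.1 and 36.1 CPM and then 70.3 and 70.0 CPM in WT.

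In the other direction stood genes that fell in WT, some with a smaller p of the difference than genes named above. *Dio1*, the deiodinase that activates thyroid hormone, fell in WT from 43.5 and 48.4 CPM to 4.09 and 2.53 CPM and was at 53.4 and 63.9 CPM and then 52.7 and 33.8 CPM in null, a difference of −3.34 (SE 0.46, adjusted p = 0.0989). *Gsdmc3*, a gasdermin with near-identical neighbours, fell from 237 and 262 CPM to 3.04 and 6.97 CPM in WT, and was at 331 and 174 CPM and then 183 and 81.8 CPM in null.

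*Slc37a2*, a sugar-phosphate exchanger, fell in WT from 191 and 237 CPM to 22.4 and 19.7 CPM, and in null it was at 138 and 108 CPM and then 417 and 126 CPM. *Slc13a2*, the sodium-coupled citrate and succinate carrier, fell in WT from 170 and 231 CPM to 58.8 and 43.4 CPM and was at 184 and 129 CPM and then 389 and 204 CPM in null. For both carriers the treated WT mice were below all other mice. Under DESeq2 the differences of *Saa3*, *Igfbp5*, *Lcn2*, *Dio1*, *Gsdmc3*, *Slc37a2* and *Slc13a2* passed, with adjusted p-values from 1.585e-13 to 3.151e-05.

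**Figure D2:**
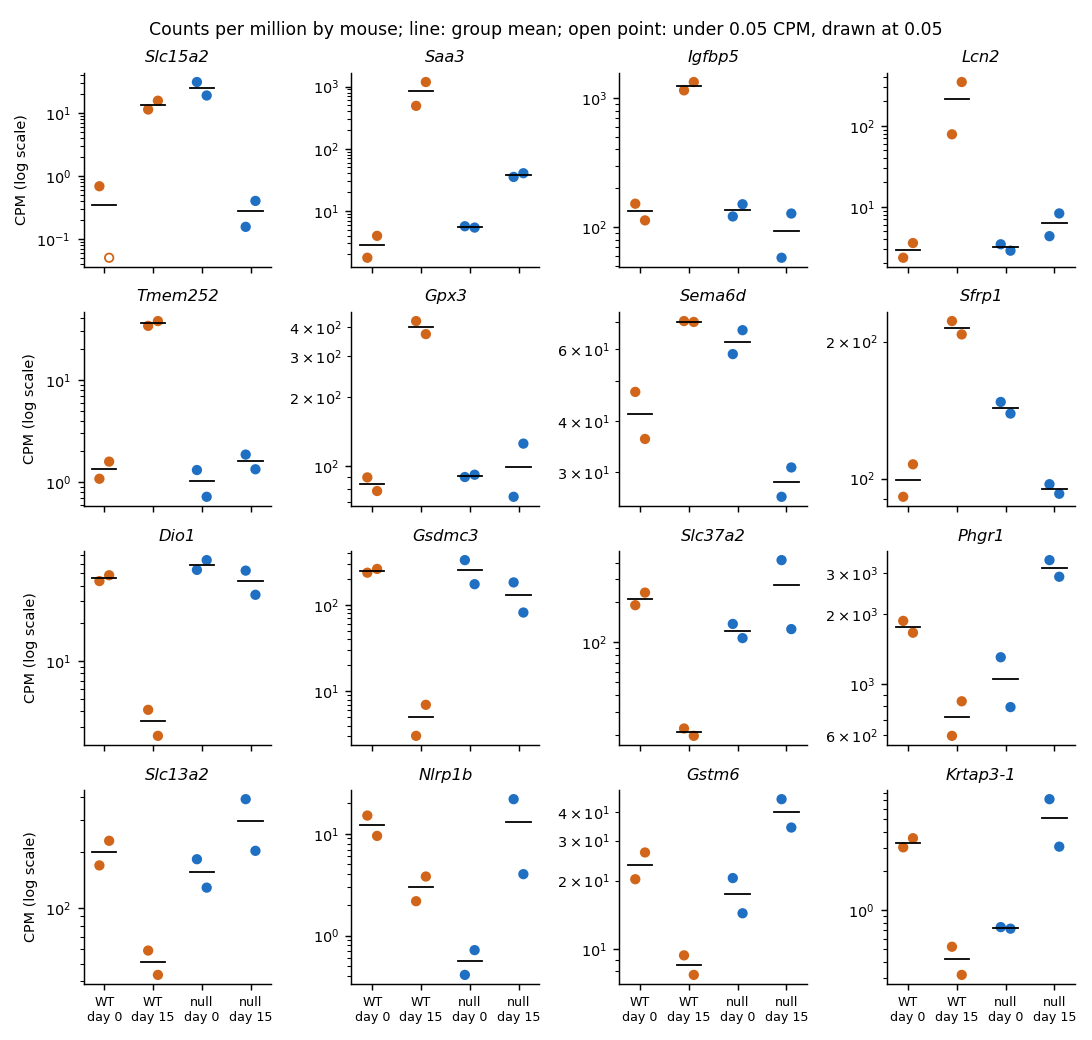
CPM on a log scale for each of the 8 mice, for genes with the smallest p of the difference in either direction and for *Krtap3-1*; black lines are group means of 2 mice, orange is WT, blue is *Hsf1* null, and open points are under 0.05 CPM and drawn there. In *Slc15a2* the WT points go up and the null points down, and in most other panels the treated WT mice are the pair that stands away from the rest.

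Among genes called in null and not in WT, those named here were chosen for the smallest p of the difference. Several of them had null levels that crossed those of WT between the days, which this choice favours. In 94.48% of the whole class the fitted sign was the same in both genotypes. *Phgr1*, a small proline-, histidine- and glycine-rich protein of surface epithelium, rose in null from 1305 and 795 CPM to 3426 and 2904 CPM and was at 1873 and 1665 CPM and then 598 and 842 CPM in WT. *Ffar2*, a receptor for short-chain fatty acids, rose in null from 6.4 and 6.82 CPM to 36.0 and 41.4 CPM and stayed between 11.1 and 17.0 CPM in all 4 WT mice. *Sectm1a* rose in null from 6.89 and 6.82 CPM to 37.7 and 30.2 CPM and stayed between 9.04 and 17.4 CPM in WT. *Nlrp1b*, an inflammasome sensor, had 5 and 2 counts in untreated null mice and 141 and 30 in treated null mice, against 154 and 24 and then 25 and 36 counts in WT. Its genotype difference at day 0 was 4.63 on the log2 scale, so the untreated groups were already far apart.

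*Sgk1*, a kinase that raises sodium uptake, fell in null by 3.44 (SE 0.39), from 795 and 518 CPM to 69.1 and 51.6 CPM, and was at 273 and 316 CPM and then 209 and 106 CPM in WT. *Sar1b*, which carries secretory cargo out of the endoplasmic reticulum, fell in null from 100 and 160 CPM to 18.9 and 27.9 CPM and stayed between 42.0 and 70.2 CPM in WT. *H2afz*, a histone variant, fell in null from 200 and 251 CPM to 97.8 and 107 CPM and was at 237 to 367 CPM in WT. Adjusted p-values of the differences of *Sgk1*, *Sar1b*, *H2afz*, *Ffar2*, *Sectm1a*, *Phgr1* and *Nlrp1b* lay between 0.21 and 0.315 with edgeR, and all 7 passed with DESeq2, at 2.765e-07 for *Phgr1* to 0.018 for *Sar1b*.

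The named groups of genes were then read against these backgrounds, of 3.58% for an unadjusted p under 0.05 with WT above null and 5.03% with WT below. Acute-phase and antimicrobial genes are made by epithelium and immune cells against bacteria. Of 16 tested, 12 rose in WT and 6 in null (10 to 12 and 0 to 7 over the omissions), none fell in either, and 8 had an unadjusted p under 0.05 with WT above null and 2 with WT below. Their median log2 change was 3.88 in WT and 1.65 in null, against 0.00 and 0.05 over all genes tested. *Socs3*, the feedback inhibitor of interleukin-6 signalling, rose from 7.35 and 7.94 CPM to 89.8 and 133 CPM in WT and from 3.37 and 6.11 CPM to 11.5 and 12.7 CPM in null. *Reg3b*, a bactericidal lectin, had 1 and 1 counts in untreated WT and 772 and 1708 in treated WT. *Serpina3n*, a protease inhibitor, rose in WT from 126 and 87.3 CPM to 1791 and 1406 CPM and was at 70.7 to 77.6 CPM and then 74.1 and 244 CPM in null. The exceptions were *Reg4* and *Saa1* (one of several similar serum amyloid genes), with lower WT values after treatment (326 and 365 CPM against 206 and 188 CPM for *Reg4*) without passing in either genotype. *Pla2g2a*, *Nos2*, *Slpi* and *Duoxa2* rose in both genotypes, by 4.37 and 5.20, 4.11 and 3.06, 3.13 and 2.12, and 2.06 and 1.84, with no p under 0.05 for the difference. Over the 8 omissions the count with WT above null ranged from 4 to 10, lowest without null replicate 1 at day 0.

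Neutrophil markers rose in 9 of 13 in WT and 2 of 13 in null, and over the omissions the WT count ranged from 3 (without WT replicate 2 at day 15) to 9. *S100a9*, a calprotectin subunit, was at 1.18 and 0.794 CPM in untreated WT and 54.5 and 297 CPM in treated WT, and at 0.657 and 1.80 CPM and then 3.10 and 8.55 CPM in null. *S100a8*, its partner, had 3 and 1 counts and then 265 and 682 counts in WT, against 2 and 0 and then 0 and 9 counts in null. *Ngp*, a granule protein, had 132 and 271 counts in treated WT and none in the other 6 mice. The median change was 4.75 in WT and 1.02 in null (1.34 with *Ngp* left out), and the null median was −0.34 without null replicate 2 at day 15. Of the 13, 4 had an unadjusted p under 0.05 with WT above null and 1 with WT below, and the first count ranged from 1 (without null replicate 1 at day 0) to 7 (without null replicate 2 at day 15) over the omissions. That 1 gene was *Cd177*, which rose in both genotypes and more in null (102 and 89.1 CPM to 627 and 858 CPM) than in WT (333 and 182 CPM to 752 and 567 CPM). It was the most abundant marker of the list in every mouse, and the summed level of the list ran from 97.7 to 354 CPM untreated and from 634 to 1170 CPM treated.

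Cytokines and chemokines rose in 7 of 20 in WT and 1 of 20 in null, and none fell. *Tnf* rose in both (2.72 and 2.08). *Il33*, an alarmin, was at 3.62 and 3.97 CPM and then 9.74 and 59.2 CPM in WT, and at 6.65 and 6.11 CPM and then 3.56 and 3.74 CPM in null. *Il1b* was at 2.65 and 2.38 CPM and then 11.6 and 72.5 CPM in WT and between 1.86 and 5.39 CPM in every null mouse. In both genes the treated WT mice lay far apart, with replicate 2 the higher. The WT count of 7 was 0 without WT replicate 2 at day 15, 1 without either WT mouse at day 0, and 14 without WT replicate 1 at day 15. The neutrophil-drawing chemokines *Cxcl5* and *Cxcl2* rose in WT by 5.65 and 4.73 and were at 3.27 and 3.11 in null without passing. Macrophage markers rose in 5 of 17 in WT and in none in null, among them the complement genes *C1qa* (63.5 and 37.7 CPM to 206 and 211 CPM in WT, 30.3 and 33.4 CPM and then 37.0 and 56.1 CPM in null) and *C1qc*. The macrophage count in WT was 0 without WT replicate 2 at day 0 and 1 without WT replicate 2 at day 15, and the 3 macrophage genes with an unadjusted p under 0.05 became 12 without null replicate 2 at day 15. Of the T-cell markers 4 of 14 rose in WT and 2 in null, with medians of 1.80 and 1.71, and none had an unadjusted p under 0.05 for the difference. The WT count of 4 was 0 without WT replicate 2 of either day, 1 with the replicate block and 9 with DESeq2, and the null count was 0 without null replicate 2 of either day and 6 with DESeq2. *Cd3e*, a chain of the T-cell receptor complex, rose by 2.49 and 2.75.

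**Figure D3:**
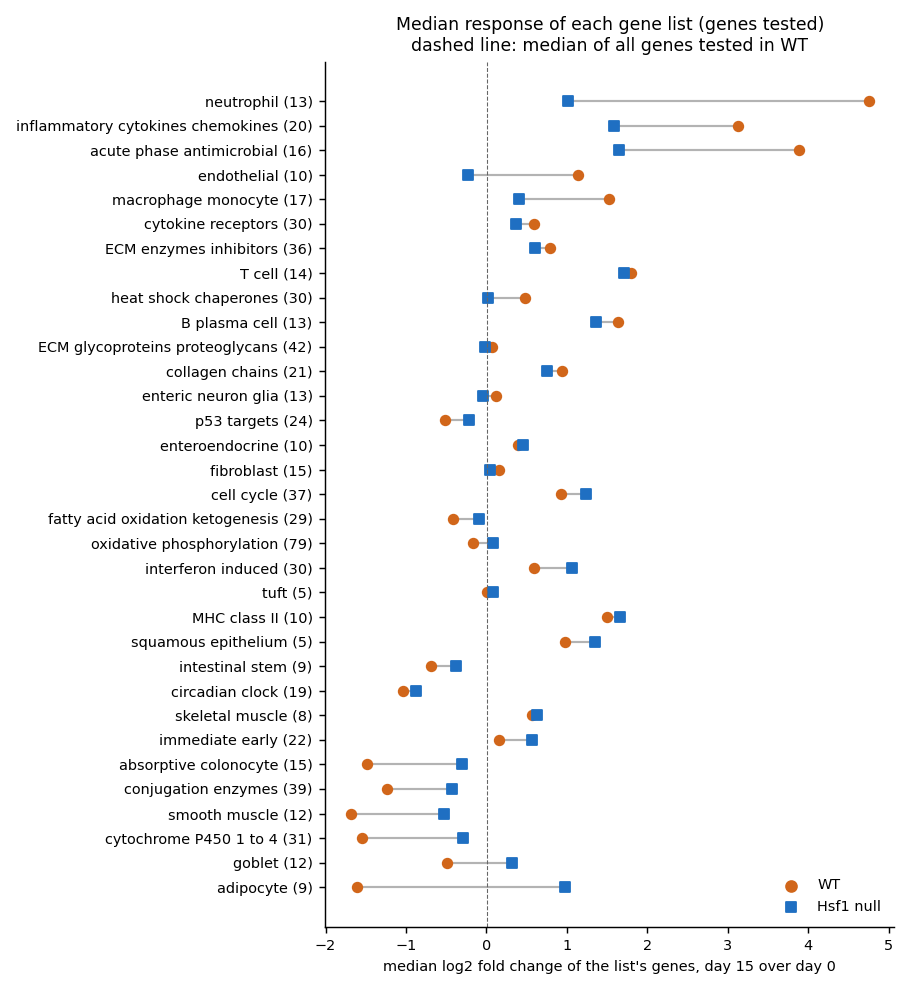
Median log2 fold change from day 0 to day 15 of each gene list in WT (orange circles) and *Hsf1* null (blue squares), with the number of genes tested in brackets, sorted by the median difference. Neutrophil, cytokine and acute-phase lists have their WT medians far to the right of the null medians, at 4.75, 3.13 and 3.88 against 1.02, 1.58 and 1.65. P450, conjugation, smooth muscle and goblet lists have WT medians to the left. Without WT replicate 2 at day 15 the cytokine medians were 1.51 in WT and 1.57 in null.

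Cytochrome P450 enzymes of families 1 to 4 oxidise drugs, steroids and bile acids, and in the colon they belong to the mature surface cells. Of 31 tested, 12 fell and 1 rose in WT, 3 fell in null, and 13 had an unadjusted p under 0.05 with WT below null against a background of 5.03%, with 1 above. The median log2 change was −1.54 in WT and −0.29 in null. *Cyp2c55*, a colon arachidonic acid hydroxylase, fell in WT from 203 and 289 CPM to 3.56 and 9.18 CPM and was at 157 and 283 CPM and then 98.3 and 31.3 CPM in null. *Cyp2f2* fell in WT from 75.6 and 91.3 CPM to 4.09 and 1.69 CPM and was at 135 and 84.8 CPM and then 134 and 38.1 CPM in null. *Cyp3a13* fell in both, by 2.50 and 1.62.

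The gene that went the other way was *Cyp2b10*, which fell in null from 51 and 4 counts to none and had 7 counts in all in WT. The count of 13 ranged from 9 to 16 over the omissions, and was 9 without null replicate 2 at day 0 and without null replicate 1 at day 15. The 12 that fell in WT became 3 without WT replicate 2 at day 15 and 4 without WT replicate 2 at day 0. Cyp2d genes, which are close copies of one another, were 6 of these 13. Of 7 Cyp2d genes tested, 6 lie 5.89 to 6.31 Mb from *Hsf1* on chromosome 15, and the part of sequence linked to the null allele was not tested. The 24 P450 genes outside Cyp2d had 7 with WT below null and 1 above, and medians of −1.03 in WT and −0.42 in null.

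Conjugating enzymes (glutathione, sulfo- and glucuronosyl transferases and carboxylesterases), which make such compounds soluble, followed. Of 39 tested, 11 fell in WT, 8 fell and 1 rose in null, and 12 had an unadjusted p under 0.05 with WT below null and 1 above. *Ces2a*, a carboxylesterase, fell in WT from 68.8 and 81.3 CPM to 4.70 and 2.85 CPM and was at 97.8 and 80.5 CPM and then 169 and 29.4 CPM in null. *Sult1a1*, a phenol sulfotransferase, fell in WT from 181 and 327 CPM to 32.8 and 7.92 CPM and was at 288 and 339 CPM and then 242 and 89.7 CPM in null. The mu-class transferase *Gstm1* was at 303 and 524 CPM and then 218 and 116 CPM in WT and at 505 and 347 CPM and then 684 and 554 CPM in null, passing in neither. Other members fell in both genotypes: *Sult1d1* fell by 3.37 and 2.55, *Ces2c* by 3.38 and 2.49, and *Ugt2b34* by 2.14 and 2.02. The count of 12 ranged from 7 to 14 over the omissions, and was 7 without WT replicate 2 or null replicate 1 at day 15, while the 11 that fell in WT became 0 without WT replicate 2 at day 15 and 5 without WT replicate 2 at day 0. Treated null replicate 1 was above replicate 2 in 12 of the 14 P450 genes and 11 of the 13 conjugation enzymes with an unadjusted p under 0.05.

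**Figure D4:**
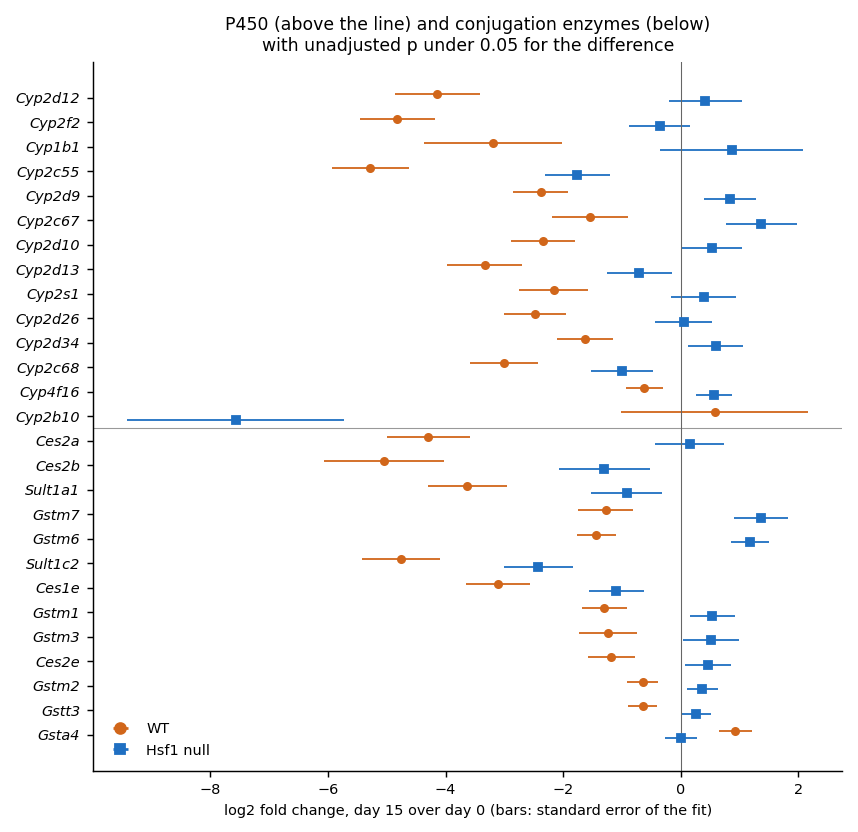
Log2 fold change from day 0 to day 15 with SE of the fit in WT (orange circles) and *Hsf1* null (blue squares) for the 14 P450 genes and 13 conjugation enzymes with an unadjusted p under 0.05 for the difference. The WT estimates lie to the left of the null estimates except for *Cyp2b10* and *Gsta4*.

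Markers of the epithelial cell types followed. Goblet cells secrete mucus, and 3 of their 12 markers fell in WT and none in null, with 3 at an unadjusted p under 0.05 with WT below null. Without WT replicate 2 at day 15 the first count was 0 and the last 6. *Clca1*, a mucus-processing protease, fell in WT from 2473 and 2642 CPM to 286 and 308 CPM and was at 1746 and 2772 CPM and then 3080 and 1231 CPM in null. *Zg16*, a lectin that keeps bacteria out of the mucus, fell in WT from 6461 and 11010 CPM to 1378 and 1502 CPM and was at 10840 and 9133 CPM and then 14780 and 5508 CPM in null. Of 15 absorptive colonocyte markers, 4 fell in each genotype, 1 rose in null, and 3 had an unadjusted p under 0.05 with WT below null. The WT count of 4 was 1 without WT replicate 2 of either day and 8 without either treated null mouse, the null count was 0 without null replicate 2 at day 0, and the median difference of −0.71 ran from −1.13 to −0.12. The 3 became 6 without null replicate 2 at day 15. *Aqp8*, a water channel, fell in WT from 231 and 314 CPM to 18.6 and 33.4 CPM, and was at 423 and 272 CPM and then 642 and 149 CPM in null, while *Slc26a3* and *Car2*, carbonic anhydrase 2, fell in both. Summed colonocyte marker level was 4521 and 7838 CPM in untreated and 1864 and 3363 CPM in treated WT, against 11150 and 11040 CPM in untreated and 8888 and 4616 CPM in treated null mice, so the genotypes lay apart before treatment as well. Summed goblet marker level was 19690 and 28550 CPM and then 8287 and 10230 CPM in WT, and 28070 and 23650 CPM and then 40720 and 21450 CPM in null, and the untreated groups overlapped. None of 10 enteroendocrine and 5 tuft cell markers passed in either genotype.

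Smooth muscle markers fell in 8 of 12 in WT and 1 of 12 in null, and 6 had an unadjusted p under 0.05 with WT below null. *Actg2*, the actin of gut muscle, fell in WT from 1112 and 1693 CPM to 395 and 182 CPM, and stayed between 748 and 1131 CPM in all null mice. *Des*, desmin, fell in WT from 663 and 1245 CPM to 353 and 193 CPM and stayed between 512 and 678 CPM in null. *Synpo2* fell in both, by 1.83 and 1.62. Without WT replicate 2 of either day no smooth muscle gene passed in WT, and the 6 genes became 2, as they did without null replicate 2 at day 0. The list median of the difference lay between −1.45 and −0.64 over the omissions. Enteric neuron and glia markers, which lie in the same muscle wall, had medians of 0.11 in WT and −0.04 in null.

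Extracellular matrix genes gave a mixed picture. Of 21 collagen chains 5 rose in WT (*Col18a1*, *Col4a1*, *Col4a2*, *Col5a3*, *Col16a1*) and 1 in null (*Col16a1*, by 1.42 and 1.41), and 2 had an unadjusted p under 0.05 for the difference. Without null replicate 1 at day 15 the null count was 7 and the median difference of the list −0.30, where it was 0.16 with all mice. Without null replicate 2 at day 15 that median was 0.95 and the 2 genes at an unadjusted p under 0.05 became 8. *Col18a1*, a basement membrane collagen, went from 44.7 and 31.4 CPM to 482 and 270 CPM in WT and from 28 and 19.4 CPM to 32.7 and 101 CPM in null, a difference of 1.82 (SE 0.69, adjusted p = 0.51). *Lama1*, a laminin chain of basement membranes, rose in WT from 2.25 and 2.38 CPM to 38.2 and 61.3 CPM and was at 1.40 and 2.87 CPM and then 3.25 and 8.29 CPM in null, a difference of 2.81 (SE 0.79, adjusted p = 0.413). Of 42 matrix glycoproteins and proteoglycans 4 rose and 2 fell in WT, and 1 rose and 5 fell in null. The 4 that rose in WT became 1 without WT replicate 2 at day 0, WT replicate 1 at day 15 or either untreated null mouse, the 2 that fell became 0 without WT replicate 1 at day 0 or replicate 2 at day 15, and no null call was left without null replicate 2 at day 0 or replicate 1 at day 15. The 3 genes at an unadjusted p under 0.05 with WT above null became 14 without null replicate 2 at day 15. The proteoglycan *Dcn* fell in null from 190 and 413 CPM to 27.6 and 105 CPM and was at 250 and 178 CPM and then 209 and 436 CPM in WT.

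Of 36 matrix enzymes and inhibitors 9 rose in WT and 1 in null, with medians of 0.79 and 0.60. The WT estimate was above the null estimate in 19 and below it in 17, with an unadjusted p under 0.05 for the difference in 5 and 2. The median difference of 0.53 ran from 0.01 to 1.45 over the omissions. *Mmp7*, matrilysin, had 2 and 0 counts in untreated and 79 and 35 counts in treated WT and 1 to 9 counts in each null mouse, and *Mmp2* rose in WT from 95.3 and 67.5 CPM to 456 and 260 CPM. *Mmp3*, *Mmp10* and *Mmp13* rose in WT chiefly through replicate 2 at day 15, at 215, 162 and 73.2 CPM against 14.3, 14.3 and 7.22 CPM in replicate 1. The WT count for collagens was 0 without WT replicate 2 at day 0, 1 without any other WT mouse and 2 without either untreated null mouse. That for matrix enzymes was 0 without WT replicate 2 of either day and 2 without either untreated null mouse. *Fn1*, *Bgn*, *Serpinh1* and *Fbln1* passed in neither genotype, and in untreated WT they were at 1145 and 465, 899 and 248, 380 and 69.8, and 55.9 and 54.4 CPM. Fibroblast markers had medians near 0 in both (0.15 and 0.04), and the direction of their median difference turned between omissions (−0.67 to 1.44).

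Receptors for cytokines and growth factors had 5 of 30 at an unadjusted p under 0.05 with WT above null and 2 below. The first count ranged from 2 (without null replicate 2 at day 0) to 10 (without null replicate 2 at day 15) and the second from 0 to 3 over the omissions. *Il1r2*, the decoy receptor for interleukin-1, rose in WT by 3.70 and was at −0.11 (SE 0.78) in null. *Il1r1* was at 33.8 and 30.2 CPM and then 41.6 and 77.6 CPM in WT and at 19.0 and 26.9 CPM and then 13.2 and 17.9 CPM in null, and *Tgfbr2* at 155 and 97.6 CPM and then 134 and 161 CPM in WT and at 85.8 and 116 CPM and then 37.2 and 62.8 CPM in null. Neither passed in either genotype, and their differences were 1.43 (SE 0.50) and 1.22 (SE 0.46). All 10 endothelial markers had a higher estimate in WT than in null, with medians of 1.14 and −0.23, and 2 had an unadjusted p under 0.05. That count ranged from 1 to 7 over the omissions, highest without null replicate 2 at day 15, and the null median was 0.06 without null replicate 1 at day 15, the mouse lowest for these markers. Of 13 B-cell and plasma-cell markers none passed in WT and 1 fell in null, with medians of 1.63 and 1.36, and 2 had an unadjusted p under 0.05 with WT above null. The 1 that fell was *Jchain*, which joins antibody chains in plasma cells, from 471 and 1378 CPM to 46.8 and 237 CPM in null, and it was at 1617 to 2745 CPM in WT. That call was lost without null replicate 2 at day 0 and without null replicate 1 at day 15, and the median difference of the list turned between omissions (−1.24 to 2.09), while the 2 genes ran from 1 to 4.

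The heat shock genes, for which HSF1 is best known, had median log2 changes of 0.47 in WT and 0.01 in null. Over the omissions the WT median ran from 0.07 (without WT replicate 2 at day 15) to 0.61 and the null median from −0.46 to 0.19. Of 30 chaperone and stress genes, 1 rose in WT and 2 fell in null, while DESeq2 called 6 as rising in WT. An unadjusted p under 0.05 for the difference was held by 6 with WT above null, against a background of 3.58%, and by none below. The inducible Hsp70 genes *Hspa1a* and *Hspa1b*, whose near-identical sequences share reads, stood out through 1 mouse: *Hspa1b* was at 15.1 and 108 CPM in treated WT, 12.6 and 16.7 CPM in untreated WT and 8.68 to 20.8 CPM in the 4 null mice. *Ahsa1*, a co-chaperone of Hsp90, rose in WT from 33.2 and 31.4 CPM to 58.2 and 80.2 CPM and was at 26.8 to 31.6 CPM in all null mice. *Ubb*, a ubiquitin gene, fell in null from 88.8 and 129 CPM to 29.0 and 15.2 CPM and was at 150 and 137 CPM and then 82.2 and 74.9 CPM in WT. *Dnaja1* and *Dnajb1*, Hsp40 co-chaperones, had differences of 1.42 (SE 0.52) and 1.05 (SE 0.42). The count of 6 was 1 without WT replicate 1 at day 0 and 1 without WT replicate 2 at day 15.

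Promoters of these genes were searched for heat shock elements, the inverted GAA repeats to which HSF1 binds as a trimer, in the window from 250 bases before to 50 bases after the start of each gene (RefSeq, GRCm38.p6). The motif of 2 units was GAANNTTC or TTCNNGAA, each its own reverse complement. The motif of 3 units was GAANNTTC followed by NNGAA, or TTCNNGAA followed by NNTTC, which are reverse complements, so that both strands were searched and every match of 3 units holds matches of 2 units. Of 23 chaperone genes with a window, 4 held 3 units (17.4%, against 0.542% of tested genes with a window). At least 2 units were held by 14 (60.9%, against 13.9%). *Hspd1* and *Hspe1* share their matched bases between facing promoters, and *Hspa1a* and *Hspa1b* hold the same stretch, so these genes are not independent. Of the 14 chaperone genes with at least 2 units 3 had an unadjusted p under 0.05 for the difference, as did 3 of the 9 with none. Only exact matches were counted, so the 9 may hold imperfect elements. Over all tested genes, those with an unadjusted p under 0.05 for the difference held 3 units in 0.265% of those with WT above null and 0.187% with WT below, against 0.542% of the genes tested, and 2 units in 18.5% and 12.1% against 13.9%. The stretches below are 30 or 29 bases from the promoters of *Hspa1b* (chr17:34959324-34959353, minus strand) and *Dnaja1* (chr4:40722333-40722362, plus strand), whose responses differed at an unadjusted p under 0.05, and of *Hspe1* (chr1:55088051-55088079, plus strand), a mitochondrial chaperone gene with 3 units whose response was 0.72 in WT and 0.09 in null. Capitals mark the motif, 5′ to 3′ on the gene's strand.
Hspa1b: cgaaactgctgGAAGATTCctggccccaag
Dnaja1: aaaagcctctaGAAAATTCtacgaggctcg
Hspe1: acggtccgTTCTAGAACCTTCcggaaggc

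A few other groups had 3 or fewer genes at an unadjusted p under 0.05 for the difference with all 8 mice. Cell-cycle genes rose in 9 of 37 in WT and 18 of 37 in null, with medians of 0.92 and 1.24, and 1 and 2 had an unadjusted p under 0.05 with WT above and below null. The WT count was 0 without WT replicate 2 at day 0 or either treated WT mouse and 12 without null replicate 1 at day 15, and the null count was 0 without null replicate 2 at day 0. Without null replicate 2 at day 15 the count with WT above null was 7, and the count with WT below ran from 0 to 3. *Plk1*, a mitotic kinase, rose from 32.8 and 27.8 CPM to 114 and 78.4 CPM in WT and from 10.9 and 3.95 CPM to 56.4 and 75.6 CPM in null, from a lower start in null, and was among the 2 below. MHC class II genes, which present antigen, rose in 4 of 10 in null and none in WT, with medians of 1.66 in null and 1.50 in WT. No gene had an unadjusted p under 0.05 for the difference. The WT median ran from 0.41 (without WT replicate 2 at day 15) to 2.72 (without WT replicate 1 at day 0). The null count was 0 without any 1 of the 4 null mice. *Cd74* was at 1242 and 3783 CPM in treated WT, a wide spread, and at 2828 and 1489 CPM in treated null. Interferon-induced genes rose in 1 of 30 in null and none in WT, with medians of 0.59 in WT and 1.06 in null, and 1 had an unadjusted p under 0.05 with WT below null. Without WT replicate 2 at day 15 the WT median was −1.22, the null count 7 and the count with WT below null 16, and the null count was also 7 without WT replicate 1 at day 15.

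Clock genes, which follow the time of day, fell in 6 of 19 in WT and 5 in null, and 2 had an unadjusted p under 0.05 with WT above null and 3 with WT below. Over the omissions the WT count ranged from 1 (without WT replicate 2 at day 15) to 8, and the null count from 0 (without null replicate 2 at day 0) to 5, while the 2 ran from 0 to 3 and the 3 from 3 to 6. *Nr1d2* fell in both, by 2.45 and 1.93. *Dbp* fell in WT from 114 and 181 CPM to 15 and 10.0 CPM and was at 310 and 146 CPM and then 177 and 73.6 CPM in null, and *Tef* fell in WT from 146 and 198 CPM to 58.0 and 34.3 CPM and was at 219 to 362 CPM in null. The hour at which each mouse was killed is not given in the sources used here. Fatty acid oxidation genes fell in 2 of 29 in WT and 3 in null and rose in 2 in null, and 5 had an unadjusted p under 0.05 with WT below null, among them *Decr1*, *Ppara* and *Acads*. Without null replicate 1 at day 15 that count was 1. *Aldh2*, which oxidises acetaldehyde, fell in WT from 343 and 523 CPM to 178 and 138 CPM and was at 245 to 429 CPM in null, a difference of −1.47 (SE 0.47, adjusted p = 0.448). *Acad12*, an acyl-CoA dehydrogenase, had a difference of −2.25 (SE 0.85) and passed in neither. Of 79 genes matched as oxidative phosphorylation subunits, 61 had the lower estimate in WT (7219 of all 14371), with medians of −0.17 and 0.08, and 3 had an unadjusted p under 0.05, a count of 0 without WT replicate 2 at day 0 and 9 without null replicate 1 at day 0. In null 5 rose and 3 fell, and in WT 1 fell, and no null call was left without null replicate 2 at day 0 or without either treated null mouse.

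Of 24 p53 target genes 1 fell in WT and 2 in null, with 2 at an unadjusted p under 0.05 with WT below null, and of 22 immediate-early genes 1 rose and 2 fell in WT and 2 rose in null, with 1 below. Intestinal stem cell markers fell in 2 of 9 in WT and none in null. Of 9 adipocyte markers none passed (medians −1.61 and 0.98), and the summed level was 404 and 123 CPM and then 289 and 161 CPM in WT, and 133 and 29.4 CPM and then 23.6 and 279 CPM in null. Skeletal muscle markers rose in 1 and fell in 1 of 8 in null and fell in 1 in WT, and squamous epithelium markers rose in 1 of 5 in WT and 2 in null. Each of these counts of passing genes was 0 in at least 1 of the 8 omissions. Without null replicate 2 at day 15 the immediate-early count with WT below null was 7, and that of p53 targets ran from 1 to 4, highest without null replicate 1 at day 0.

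The 1238 genes with an unadjusted p under 0.05 were then divided by the day at which the genotypes lay further apart. In 1075 of them (86.8%) it was day 15, and in 163 it was day 0. The median absolute log2 difference between genotypes was 0.33 at day 0 and 1.31 at day 15. These genes were chosen by the difference between the same values, and the share over all genes tested was not computed. *Igfbp5*, with a genotype difference of −0.03 at day 0 and 3.74 at day 15, is of the first kind, and *Slc15a2*, *Nlrp1b* and *Krtap3-1* differed by more than 2 on both days. The fitted responses had opposite signs in 690 of the 1238 genes (in 250 WT was up and null down, in 440 WT down and null up). In 282 the sign was the same with the larger change in WT, and in 266 the same with the larger change in null. Choosing genes by the difference favours opposite signs, which 3683 of all 14371 genes tested had. In the 10 Mb on either side of *Hsf1*, 24 of 245 tested genes (9.80%) had an unadjusted p under 0.05, near the 8.61% over all genes.

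**Figure D5:**
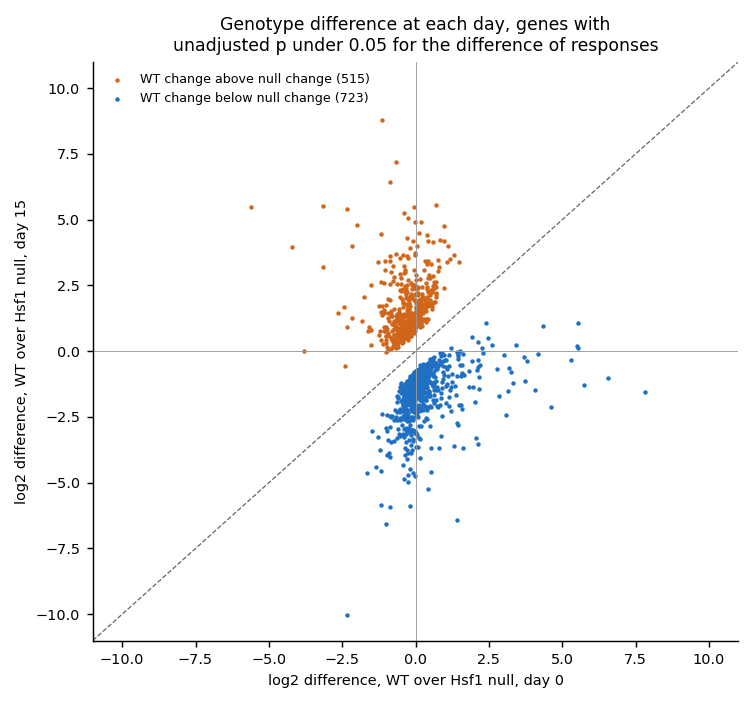
Log2 ratio of WT over *Hsf1* null on day 0 (x axis) and on day 15 (y axis), 2 mice per group, for the 1238 genes with an unadjusted p under 0.05 for the difference of responses; orange genes (515) have the WT change above the null change and blue genes (723) below. The empty band along the dashed line of equal difference follows from the choice of genes, and most points lie near 0 on the x axis, as in 1075 of 1238 genes the day-15 difference was the larger.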

How the data were processed

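Distal colon RNA of 8 mice was sequenced as polyA libraries. Per the labels, the authors aligned reads to mm10 with STAR and used DESeq2, and deposited raw read counts per gene for 15859 genes. The counting program and its annotation are not given in the sources used here. Library totals ran from 2553348 to 12440257 counts, which limits weakly expressed genes most in the smallest libraries.

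Groups came from the sample labels. Counts were scaled by TMM and fitted with the quasi-likelihood test of edgeR 4.0.16 (R 4.3.3) over all 8 samples and 4 groups, for genes with a mean normalized count above 5 (14371 genes). Contrasts were day 15 against day 0 in each genotype and their difference, each adjusted by Benjamini-Hochberg over all genes tested. A gene passed at an adjusted p under 0.05 and a log2 value beyond 1. P-values measure the spread between 2 mice per group. Counting intervals are exact at 95%, cover counting error only, and a group without counts was set to a floor of 3 counts over the group.

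Named genes were *Hsf1*, genes past the test of the difference, and the 8 with the smallest p of the difference in each direction. Of genes called in both genotypes in one direction, those with the largest changes were named. Of genes called in a single genotype, those with the smallest p of the difference were named. Genes called in opposite directions, genes the study names and members of the gene lists were added, many list members by that same p. One gene that this rule names is not reported here. These lists and the comparison were chosen with earlier results of these data known, and some list genes were chosen by the study on these samples. No test was run on a list. The fit was also run on simulated counts, and no result given here rests on that run. Alternatives were DESeq2 1.42.0, other scaling, filters and thresholds, thinning, GC and length offsets, a replicate block, fits per genotype, and each mouse left out. Same-numbered mice are different animals, and their deviations from the group means did not correlate over all pairs of groups, so the numbers were not used as pairs. Promoter windows came from RefSeq (GRCm38.p6), and figures from matplotlib 3.10.9.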

Additional observations from a re-analysis of the deposited data

Results flagged for a closer look

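The difference of responses of *Slc15a2* was 11.09 on the log2 scale (SE 0.98, adjusted p = 0.00761 by edgeR's quasi-likelihood test). In this gene both treated WT mice were above both untreated WT mice, and both treated null mice below both untreated null mice. The difference is listed here because the test of the difference between the genotypes itself passed. It lost significance without null replicate 1 or 2 at day 0 or null replicate 1 at day 15.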

How the results depend on the processing

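The named genes were chosen by small p-values, which partly fixes their sign. Of 4015 recomputed values for 206 results on single named genes, 3563 kept direction and side of the threshold, 356 lost and 96 gained significance, and 0 changed sign. List medians of the difference did turn between omissions, from −0.67 to 1.44 for fibroblast, −0.30 to 0.95 for collagen and −0.35 to 1.35 for T-cell genes. DESeq2 gave 1737 genes for WT, 985 for WT and not null, 745 in both in one direction, 7 in opposite directions and 120 for the difference. An adjusted p under 0.1 gave 1867, 1043, 818, 6 and 5. Without a filter on low counts, and after thinning to the smallest library, 2 genes passed for the difference. With GC and length offsets and no replicate block, 644 genes passed in null, 449 in null and not WT, 194 in both and 1 in opposite directions. Fitting each genotype alone left 1 gene in opposite directions. The cause was not tested.

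Leaving out 1 mouse at a time leaves a lone mouse that is assumed to vary like the other groups. It gave 92 to 1336 genes for WT, 0 to 1891 for null, 0 to 410 in both in one direction, 43 to 1202 for WT and not null, 0 to 1523 for null and not WT, 0 to 6 in opposite directions, 0 to 50 for the difference, and 691 to 2105 at an unadjusted p under 0.05 for the difference.

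Same-numbered mice did not pair: correlations of their deviations ran from −0.29 to 0.15 over the 6 pairs of groups. With the replicate block, 868 genes passed in WT, 1506 in null, 346 in both in one direction, 520 in WT and not null, 1158 in null and not WT, 2 in opposite directions and 2 for the difference, where *Saa3* joined *Slc15a2* (adjusted p = 0.0407 and 0.0395 by edgeR), and 1290 had an unadjusted p under 0.05. The replicate block with GC and length offsets gave 605 genes for WT, 228 for null, 160 for null and not WT, 67 in both and 1 in opposite directions. Exchanging the untreated WT pair within the block, an alternative chosen after seeing the data, gave 1856 for WT, 1112 for WT and not null, 732 in both, 12 in opposite directions, 54 for the difference and 1964 at an unadjusted p under 0.05.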
